A study of Rattus norvegicus with 42 samples.

Results

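The serpins are a superfamily of protease inhibitors and their non-inhibitory relatives, described here in rat liver, brain and lung and in mixtures of these tissues. The members were chosen by gene symbol alone, as every probe set whose only annotated symbol began with Serpin, a clade letter from a to i and a number. This gave 38 probe sets for 33 genes, out of 31042 probe sets without controls and 14217 named genes. Each probe set is a group of short probes on the array that are read as 1 level and may match more than 1 transcript. The gene table of the rat assembly GRCr8 lists 46 genes whose symbols fit the same pattern, and all 33 measured genes matched it by gene identifier.

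An inhibitory serpin offers its target protease a bait loop, and cutting of that loop traps the protease in a permanent complex. Liver is the source of most serpins of blood plasma, which restrain coagulation, fibrinolysis, complement and leukocyte elastase or carry hormones. Clade B serpins stay mostly inside cells and guard them against leukocyte granule proteases and cathepsins, and neuroserpin is known for its release by neurons.

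Tissue came from 1 untreated rat, with an age of 9 to 12 weeks in the labels, and the series was made to find out how well tissue composition can be recovered by statistics. The groups were pure liver, pure brain, pure lung and 11 mixtures made by combining labelled RNA (cRNA), each on 3 Affymetrix rat arrays, 42 arrays in all. Mixtures carry their labelled liver, brain and lung percentages as a name, so 70/25/5 held 70% liver. Levels are RMA values on the log2 scale, on which 1 unit is a 2-fold difference. All 3 arrays of a group carried RNA of the same rat, so a p-value here speaks of the spread between arrays and says nothing of the spread between rats. In bulk tissue, fewer cells of a type and less RNA per cell cannot be told apart.

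Array medians ran between 5.48 and 5.83 (log2). Most markers of each labelled tissue were where the label puts them. Of the hepatocyte markers 15 of 15 were enriched in liver (9.61% of all named genes). In brain 8 of 9 measured neuron and glia markers were enriched (11.7%), and in lung 7 of 7 measured lung epithelium markers (11.5%). The remaining glial marker, Slc1a2, averaged 6.67 in liver, 6.05 in brain and 3.66 in lung. Hepatocyte markers were also higher in brain than in lung for 12 of 15, with Alb at 12.21 and 5.07, as given below. Enriched means called higher than in both other pure tissues at an adjusted p under 0.05 and at least 2-fold, in 1 limma fit over all arrays with Benjamini-Hochberg adjustment over all 31042 probe sets. The bacterial dap control probe sets, which have no partner in rat RNA, read 2.35 to 3.22 in the pure tissues and show where background lies. Folds against a level near 3 therefore depend on background.

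Serpins divided by clade among the tissues. Liver enrichment was called for 16 of the 38 probe sets (7.28% of all probe sets), brain enrichment for 3 (11.5% of all) and lung enrichment for 9 (8.95% of all), which left 10 with none. By gene the counts were 16, 2 and 7, with 8 genes enriched nowhere, against 9.61%, 11.7% and 11.5% of all named genes for liver, brain and lung. The median range over the 3 pure tissues was 3.87 (log2) for the serpins and 0.97 for all probe sets. Clade A was enriched in liver in 11 of 12 genes and clade B in lung in 6 of 11 genes, while no clade A gene was enriched in lung and no clade B gene in liver. In each of the 28 enriched probe sets every array of the named tissue read above every array of the other two, the smallest gap being 0.75 (log2). The 2-fold limit was set on these same arrays and makes such gaps likely, so they are no separate support. Liver over brain was called for 16 serpin probe sets (14.6% of all) and brain over liver for 3 (18.9%). Between liver and lung the counts were 16 higher in liver (10.8% of all) and 9 higher in lung (17.2%). Between brain and lung they were 6 higher in brain (15.0% of all) and 13 higher in lung (15.9%).

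**Figure D1:**
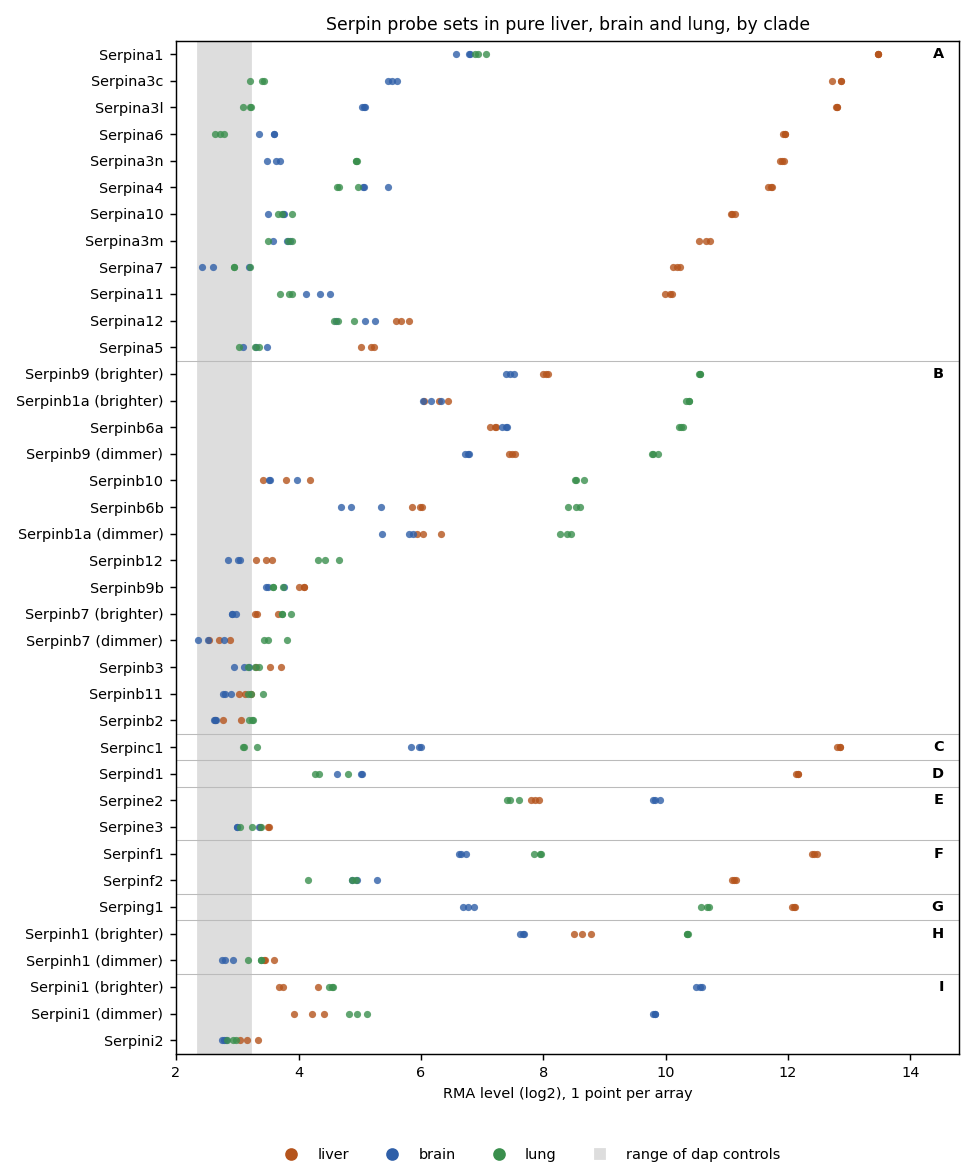
RMA level (log2) of the 38 serpin probe sets in pure liver, brain and lung, with 1 point per array, grouped by clade letter, and the range of the dap controls (2.35 to 3.22) as a grey band. Liver points stand rightmost in all 12 clade A genes, near the others in Serpina5 and Serpina12. Lung points stand rightmost in the 8 of 14 clade B probe sets that were enriched in lung. By smaller gaps they also do so in Serpinb2 (0.13) and in the brighter (0.06) and dimmer (0.57) Serpinb7 probe sets.

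Clade A holds the plasma inhibitors of elastase and the hormone carriers. Serpina1, alpha-1-antitrypsin, which restrains neutrophil elastase, read 13.47, 13.46 and 13.47 (log2) on the liver arrays, 6.79, 6.80 and 6.58 on the brain arrays and 6.93, 7.07 and 6.89 on the lung arrays. It was 91.0-fold higher in liver than in lung, the next tissue, on a probe set that already averaged 13.25 in the mixture with 45% liver, and the levels of brain and lung, which did not overlap, stood well above the dap controls. Serpina6, corticosteroid-binding globulin, which carries glucocorticoids in blood, read 11.96, 11.91 and 11.95 in liver, 3.60, 3.35 and 3.61 in brain and 2.72, 2.63 and 2.79 in lung. Its 343-fold difference between liver and brain was the widest lead of any serpin over its next tissue. Serpina7, thyroxine-binding globulin, read 10.18, 10.12 and 10.24 in liver, 2.60, 3.18 and 2.43 in brain and 3.20, 2.94 and 2.95 in lung, a 142-fold lead. Its brain and lung arrays overlapped and lay within the range of the dap controls. Both hormone carriers have the serpin fold but do not inhibit proteases.

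The Serpina3 genes are a rat family of several copies related to human alpha-1-antichymotrypsin, so probes may share targets between copies. Serpina3c read 12.86, 12.72 and 12.87 in liver, 5.61, 5.46 and 5.53 in brain and 3.20, 3.44 and 3.41 in lung. Serpina3l read 12.79, 12.79 and 12.80 in liver, 5.09, 5.07 and 5.03 in brain and 3.20, 3.09 and 3.22 in lung. Both were thus highest in liver and clearly higher in brain than in lung, with no overlap of arrays. Serpina3n showed the opposite order of the lower pair: 11.93, 11.88 and 11.90 in liver, 3.64, 3.49 and 3.69 in brain and 4.94, 4.94 and 4.96 in lung. Serpina3m read 10.55, 10.66 and 10.73 in liver, 3.81, 3.86 and 3.59 in brain and 3.82, 3.89 and 3.51 in lung, and brain and lung overlapped. The leads of liver over the next tissue were 156-fold for Serpina3c, 212-fold for Serpina3l, 124-fold for Serpina3n and 119-fold for Serpina3m.

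The other clade A genes were highest in liver as well. Serpina10, the protein Z-dependent inhibitor of coagulation factor Xa, read 11.07, 11.13 and 11.08 in liver, 3.76, 3.75 and 3.50 in brain and 3.67, 3.90 and 3.73 in lung, a 161-fold lead. Serpina4, kallistatin, an inhibitor of tissue kallikrein, read 11.73, 11.67 and 11.72 in liver, 5.46, 5.05 and 5.07 in brain and 4.97, 4.67 and 4.63 in lung, a 91.5-fold lead. Serpina11 read 10.10, 10.00 and 10.07 in liver, 4.34, 4.13 and 4.52 in brain and 3.70, 3.85 and 3.89 in lung, a 52.9-fold lead. In all of these the liver arrays lay far above the rest. Serpina5, the protein C inhibitor, had the smallest lead of the enriched genes of the clade, with means of 5.15 ± 0.11 in liver, 3.29 ± 0.19 in brain and 3.22 ± 0.18 in lung (log2, SD, n = 3 each), 3.62-fold. Its adjusted p of 7.38e-19 against brain (limma) was the largest of any liver-enriched serpin in either comparison. After a shift of each array along its hybridisation controls liver over brain was 1.00 (log2) for Serpina5, just under the limit. Serpina12, vaspin, known as an adipose product, was the only clade A gene with no call: it averaged 5.69 ± 0.11 in liver, 4.98 ± 0.34 in brain and 4.72 ± 0.17 in lung, and both differences from liver stayed under 2-fold.

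The GRCr8 gene table places 11 of the measured clade A genes on chromosome 6, and Serpina7 on chromosome X. All 11 on chromosome 6 had their highest mean in liver, and 10 were enriched there. Promoter windows of 250 bases before the RefSeq transcription start were available for 27 of the 33 genes. Those of Serpina4, Serpina7 and Serpinc1 are shown because they are the liver-enriched serpin genes whose window held a searched motif of liver transcription factors (5′ to 3′ on the gene's strand, RefSeq, GRCr8, matches in capitals).
Serpina4, chr6:128764532-128764781, plus strand: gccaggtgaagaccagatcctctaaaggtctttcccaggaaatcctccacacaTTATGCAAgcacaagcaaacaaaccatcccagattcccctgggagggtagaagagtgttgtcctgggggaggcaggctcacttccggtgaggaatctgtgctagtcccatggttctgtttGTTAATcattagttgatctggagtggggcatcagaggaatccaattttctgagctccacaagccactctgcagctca
Serpina7, chrX:107457682-107457931, minus strand: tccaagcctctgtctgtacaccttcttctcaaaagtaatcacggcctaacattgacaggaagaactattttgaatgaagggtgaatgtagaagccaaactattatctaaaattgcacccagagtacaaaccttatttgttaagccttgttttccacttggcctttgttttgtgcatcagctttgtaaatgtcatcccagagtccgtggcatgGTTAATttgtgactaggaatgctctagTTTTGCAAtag
Serpinc1, chr13:75790308-75790557, plus strand: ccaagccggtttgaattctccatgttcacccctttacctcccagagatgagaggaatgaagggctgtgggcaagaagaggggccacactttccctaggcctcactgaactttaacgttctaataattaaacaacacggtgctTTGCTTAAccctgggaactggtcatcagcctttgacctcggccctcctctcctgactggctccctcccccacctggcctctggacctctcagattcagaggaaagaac
The capitals mark GTTAAT or ATTAAC, the HNF1 half-site, and TTGCNNAA or TTNNGCAA, a C/EBP-type pattern, searched on both strands with no overlap between marked matches. The HNF1 half-site was in 2 of 11 windows of liver-enriched serpin genes (Serpina4 and Serpina7) and in 6.46% of 27457 rat promoter windows of the same length. The C/EBP-type pattern was in 3 of those 11 windows, in 1 of 6 of lung-enriched genes, in 0 of 2 of brain-enriched genes, in 2 of 8 of genes with no enrichment and in 9.2% of all windows. The HNF4 site core, CAAAGTCC or GGACTTTG, was in 0 of the 27 serpin windows and in 1.17% of all. These matches describe letters in the windows, counted by enrichment class, and a link to the levels was not tested.

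Plasma serpins of clades C, D, F and G were enriched in liver in 5 of 5 genes. All but Serpinf1 act on coagulation, clot lysis or complement. Serpinc1, antithrombin, the inhibitor of thrombin and factor Xa, read 12.84, 12.79 and 12.85 (log2) in liver, 5.99, 5.97 and 5.83 in brain and 3.32, 3.10 and 3.09 in lung. Liver led brain 119-fold, and brain exceeded lung with no overlap. Serpind1, heparin cofactor II, which also blocks thrombin, read 12.13, 12.17 and 12.16 in liver, 4.62, 5.04 and 5.02 in brain and 4.82, 4.33 and 4.28 in lung, a 153-fold lead with brain and lung overlapping. Serpinf2, alpha-2-antiplasmin, the main plasmin inhibitor, read 11.11, 11.14 and 11.08 in liver, 5.28, 4.96 and 4.88 in brain and 4.87, 4.16 and 4.94 in lung, a 67.3-fold lead, again with overlap below liver.

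Both remaining plasma genes were also well above background in lung. Serpinf1, pigment epithelium-derived factor, a non-inhibitory serpin known to restrain vessel growth, read 12.40, 12.47 and 12.43 in liver, 6.65, 6.62 and 6.73 in brain and 7.94, 7.86 and 7.97 in lung. The lead of liver over lung was 22.8-fold. Serping1, the C1 inhibitor of complement and contact proteases, read 12.06, 12.11 and 12.10 in liver, 6.69, 6.77 and 6.86 in brain and 10.71, 10.67 and 10.57 in lung. It led only 2.71-fold in liver over lung, while lung was 14.7-fold above brain.

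Brain enrichment was called for Serpini1 and Serpine2, both inhibitors of plasminogen activators. Serpini1, neuroserpin, which blocks tissue plasminogen activator at synapses, read 10.50, 10.59 and 10.56 in brain on its brighter probe set, against 3.69, 4.32 and 3.75 in liver and 4.49, 4.56 and 4.55 in lung. Its dimmer probe set read 9.80, 9.82 and 9.83 in brain, against 4.22, 4.41 and 3.92 in liver and 5.11, 4.96 and 4.83 in lung. The probe sets gave leads of 64.9-fold and 28.8-fold over lung, and on each the liver arrays were the lowest. Serpine2, protease nexin-1, a thrombin and urokinase inhibitor made by glia, read 9.79, 9.83 and 9.91 in brain, against 7.94, 7.80 and 7.86 in liver and 7.46, 7.41 and 7.60 in lung, a 3.95-fold lead over liver. All 3 tissues were far above the dap controls for this gene. The other members of these clades were enriched nowhere: Serpini2 averaged 3.18 ± 0.15 in liver, 2.78 ± 0.04 in brain and 2.91 ± 0.08 in lung, and Serpine3 averaged 3.47 ± 0.08 in liver, 3.12 ± 0.21 in brain and 3.23 ± 0.17 in lung (log2, SD, n = 3 each).

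Lung enrichment was called for 8 of the 14 clade B probe sets, in 6 genes. Serpinb10, known in human from blood cells of the myeloid line, read 8.53, 8.51 and 8.66 (log2) in lung, against 4.19, 3.80 and 3.42 in liver and 3.51, 3.98 and 3.54 in brain, a 27.2-fold lead. Liver and brain overlapped. Serpinb1a, the counterpart of the human leukocyte elastase inhibitor, read 10.38, 10.37 and 10.34 in lung on its brighter probe set, against 6.45, 6.30 and 6.05 in liver and 6.33, 6.17 and 6.03 in brain. Its lead was 17.1-fold there and 4.84-fold on the dimmer probe set, which averaged 8.37 ± 0.09 in lung, 6.10 ± 0.21 in liver and 5.68 ± 0.27 in brain.

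The Serpinb6 and Serpinb9 genes, whose human counterparts block cathepsin G and granzyme B, were also highest in lung. Serpinb6a read 10.26, 10.22 and 10.29 in lung, against 7.20, 7.23 and 7.12 in liver and 7.41, 7.39 and 7.32 in brain, a 7.37-fold lead. Serpinb6b read 8.41, 8.60 and 8.53 in lung, against 5.86, 6.02 and 5.99 in liver and 5.34, 4.70 and 4.85 in brain, a 5.87-fold lead. Liver was the second tissue for Serpinb6b and brain for Serpinb6a. Serpinb9 read 10.56, 10.55 and 10.54 in lung on its brighter probe set, against 7.99, 8.07 and 8.05 in liver and 7.53, 7.39 and 7.45 in brain. The lead of lung over liver was 5.72-fold there and 5.04-fold on the dimmer one. Serpinb12 barely passed the limit: it averaged 4.47 ± 0.17 in lung, 3.45 ± 0.13 in liver and 2.97 ± 0.10 in brain (log2, SD, n = 3 each), 2.03-fold over liver. Its adjusted p was 2.45e-10 (limma), and the difference of liver minus lung was under 2-fold without liver replicate 3 (-0.95) or lung replicate 1 (-0.93) and under median centring (-0.77).

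Serpinh1, HSP47, the collagen chaperone of the endoplasmic reticulum, had probe sets that differed in their highest tissue. The brighter one read 10.35, 10.35 and 10.37 in lung, against 8.50, 8.78 and 8.63 in liver and 7.69, 7.66 and 7.62 in brain, a 3.30-fold lead of lung. The dimmer one read 3.17, 3.38 and 3.38 in lung, against 3.46, 3.60 and 3.44 in liver and 2.79, 2.75 and 2.93 in brain. On the dimmer one all arrays lay close to the dap controls, liver had the highest mean and no tissue was called 2-fold above another.

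Of the 10 probe sets enriched nowhere, all but that of Serpina12 stayed at or below 4.09 (log2) on every array of the pure tissues. The 5 clade B genes among them were Serpinb2, Serpinb3, Serpinb7, Serpinb9b and Serpinb11. Serpinb2, known as plasminogen activator inhibitor 2, averaged 3.23 ± 0.04 in lung, 2.82 ± 0.21 in liver and 2.64 ± 0.01 in brain, below 2-fold in each comparison. The 1 call among these 10 was on the dimmer probe set of Serpinb7, which read 3.50, 3.44 and 3.81 in lung, 2.70, 2.88 and 2.54 in liver and 2.52, 2.79 and 2.35 in brain, lung being 2.04-fold above brain. Without brain replicate 3 (-0.93) or lung replicate 3 (-0.92) the difference of brain minus lung was under 2-fold, and with the 5th percentile of each array subtracted it was -0.22. Its brighter probe set read 3.88, 3.73 and 3.73 in lung, 3.66, 3.33 and 3.29 in liver and 2.91, 2.92 and 2.97 in brain. Serpinb9b averaged 4.06 in liver, 3.58 in brain and 3.64 in lung, and the means of Serpinb3 and Serpinb11 in the 3 tissues lay between 2.82 and 3.52.

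The clade B genes lie in 2 groups on the GRCr8 chromosomes. On chromosome 17, Serpinb6a, Serpinb9, Serpinb6b and Serpinb1a were enriched in lung and Serpinb9b was not, 4 of 5 measured genes. On chromosome 13, Serpinb12 and Serpinb10, the outermost of the measured genes in that order, were enriched in lung and the 4 between them (Serpinb3, Serpinb11, Serpinb7 and Serpinb2) were not.

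Most leukocyte and connective tissue markers were high in lung as well. For each marker list given here, the share of all named genes enriched in lung was 11.5%. All 4 measured neutrophil and macrophage markers were called higher in lung than in brain (15.9% of all probe sets), and 3 of 4 were enriched in lung. Their summed level, the log2 of the sum of linear levels, was 13.98 to 14.10 in lung. It was 10.06 to 10.11 in liver and 8.95 to 9.22 in brain. Lyz2, with a lung mean of 13.87, dominates the lung sum. The lung means of S100a8, S100a9 and Cd68 were 8.70, 9.88 and 9.29. Of the 8 mast cell and cytotoxic lymphocyte markers 5 were enriched in lung, with summed levels of 10.33 to 10.39 in lung, 8.12 to 8.21 in liver and 6.76 to 6.96 in brain. Those 5 were the mast cell gene Cpa3 and the cytotoxic genes Gzma, Gzmb, Prf1 and Nkg7. The mast cell genes Cma1, Tpsab1 and Tpsb2 were enriched nowhere. Their means were 4.77, 4.75 and 5.26 in lung and 4.40, 4.78 and 5.08 in liver. Of the 8 fibroblast markers 7 were enriched in lung, with summed levels of 13.67 to 13.75 in lung, 11.09 to 11.16 in liver and 10.25 to 10.29 in brain. The 5 measured endothelium markers and the 7 measured lung epithelium markers were all enriched in lung too, as were 2 of 3 measured mesothelium markers. The part of these cell types in the lung levels of the clade B genes and Serpinh1 was not tested.

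Among the 16 liver-enriched serpins, brain and lung differed by 2-fold or more in 6. Brain was above lung for Serpinc1 by 2.76 ± 0.05 (log2, SE of the fit), for Serpina3c by 2.18 ± 0.06 and for Serpina3l by 1.90 ± 0.04. Brain was below lung for Serping1 (-3.87 ± 0.05), Serpina3n (-1.34 ± 0.04) and Serpinf1 (-1.25 ± 0.04). Hepatocyte markers moved the same way as the first 3 genes: 12 of 15 were called higher in brain than in lung (15.0% of all probe sets) and 0 lower (15.9%). Their summed level was 16.93 to 16.97 in liver, 12.44 to 12.47 in brain and 7.81 to 7.85 in lung. Alb, serum albumin, alone averaged 14.31 in liver, 12.21 in brain and 5.07 in lung. Whether hepatocyte RNA in the brain sample adds to the brain levels of the liver serpins was not tested.

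The proteases that serpins restrain were counted in the same way, with genes given by 1 probe set each. For every such list, the shares over all named genes were 9.61% enriched in liver, 11.7% in brain and 11.5% in lung. All 6 measured coagulation and contact proteases were enriched in liver, among them F2, prothrombin, the target of Serpinc1 and Serpind1, which averaged 12.56 ± 0.05 in liver, 4.54 ± 0.29 in brain and 3.46 ± 0.06 in lung (log2, SD, n = 3 each). All 4 complement starter proteases were enriched in liver too. C1s, a target of Serping1, averaged 11.90 ± 0.03 in liver, 6.39 ± 0.15 in brain and 9.75 ± 0.09 in lung. Serping1 had the same tissue order. In the plasminogen system 3 of 6 genes were enriched in liver and 2 in lung. Plg, plasminogen, averaged 12.57 ± 0.07 in liver, 5.19 ± 0.15 in brain and 4.70 ± 0.23 in lung. Plat, tissue plasminogen activator and the target of neuroserpin, averaged 5.98 ± 0.04 in liver, 8.85 ± 0.09 in brain and 9.34 ± 0.03 in lung and was enriched in none.

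Of 12 measured granule proteases and cathepsins 5 were enriched in lung (11.5% of all named genes), 0 in liver or brain and 7 nowhere. Their summed level was nearly the same in lung (12.85 to 12.92) as in liver (12.82 to 12.84), and 12.25 to 12.36 in brain. The cathepsins Ctsl, Ctsb and Ctss, with means of 9.75 to 11.98 in the pure tissues, dominate this sum. The 5 enriched genes were the granule proteases Mcpt1, Mcpt10, Gzma, Gzmb and Gzmk, the brightest being Gzma at 8.12 in lung and 5.88 in liver. Gzma, Gzmb, Cma1, Tpsab1 and Tpsb2 are also among the mast cell and cytotoxic lymphocyte markers above, so these counts are not separate. The cathepsin gene Ctsl was highest in liver, with a mean of 11.98 ± 0.03, against 9.75 ± 0.02 in brain and 11.09 ± 0.04 in lung, and Ctss had its highest mean in brain. Gzmb, granzyme B, the target of human SERPINB9, averaged 7.29 ± 0.06 in lung, 4.19 ± 0.11 in liver and 3.82 ± 0.34 in brain. Of 8 collagen genes, whose products HSP47 helps to fold, 7 were enriched in lung. Col1a1, Col1a2 and Col3a1 among them were also counted as fibroblast and leptomeninges markers above. Col1a1 averaged 9.88 ± 0.02 in lung, 5.33 ± 0.24 in liver and 5.30 ± 0.09 in brain. Of 21 measured genes of other families of protease inhibitors 9 were enriched in liver, 2 in brain, 5 in lung and 5 in none. Ambp and Ahsg, among the 9, were also counted as hepatocyte markers. Itih3, an inter-alpha-inhibitor heavy chain, averaged 13.26 ± 0.04 in liver, 11.31 ± 0.04 in brain and 3.97 ± 0.14 in lung. Cst3, cystatin C, averaged 13.11 ± 0.06 in brain, 9.93 ± 0.07 in liver and 12.09 ± 0.00 in lung.

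In the mixtures, each serpin was set against the level that linear mixing would give, the share-weighted sum of its linear levels in the pure tissues. The departure is the mean over the 11 mixtures of the observed minus this predicted log2 level, called at an adjusted p under 0.05 and at least 1.5-fold. Calls were made for 2 serpin probe sets above the sum (0.325% of all probe sets) and 2 below it (4.84% of all), and 34 were not called. The median departure was -0.14 (log2) for the serpins and -0.22 for all probe sets. The 4 called were Serpina1 (0.80 ± 0.03, SE) and Serpina3c (0.71 ± 0.04) above, and Serpina7 (-0.82 ± 0.08) and Serpina5 (-0.79 ± 0.06) below, all liver-enriched genes of clade A. Serpinc1 came next with 0.55 ± 0.04, under the limit. After median centring Serpina1 (0.54) and Serpina3c (0.44) were no longer called, and after a shift along the hybridisation controls Serpina3c (0.53), Serpina7 (-0.56) and Serpina5 (-0.44) were not. Against a share-weighted mean of log2 values, a lower prediction by construction, Serpina7 lay above at 1.64.

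Serpina1 exceeded its predicted level in 11 of 11 mixtures, by 0.41 in 70/5/25 up to 1.59 in 5/25/70. Its arrays read 10.92, 11.05 and 11.02 in 5/25/70 where 9.41 was predicted, and 12.85, 12.81 and 12.83 in 25/70/5 where 11.51 was predicted. With 45% liver they read 13.27, 13.24 and 13.25 against a predicted 12.33, close to the pure liver arrays at 13.46 to 13.47. The 70/25/5 arrays read 13.38, 13.42 and 13.40, where 12.96 was predicted. The probe set thus gained little between 45% and 100% liver.

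Serpina7 lay under its predicted level in 11 of 11 mixtures. Its arrays read 4.59, 4.58 and 4.29 in 5/25/70 where 6.03 was predicted, and 6.91, 7.07 and 7.14 in 25/70/5 where 8.21 was predicted. In 70/25/5 they read 9.14, 9.15 and 9.08 and the prediction was 9.67. The shortfall was largest at 5% liver (-1.55) and smallest in 70/5/25 (-0.42). Serpina5 fell short in 11 of 11 mixtures as well, least in 5/25/70 (-0.27) and most in 60/35/5, where its arrays read 3.83, 3.51 and 3.63 against a predicted 4.65. Serpina3c exceeded its prediction in 11 of 11 mixtures, with 9.58, 9.80 and 9.86 in 5/25/70 against 8.57, and Serpinc1 read 9.54, 9.56 and 9.61 there against 8.59.

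**Figure D2:**
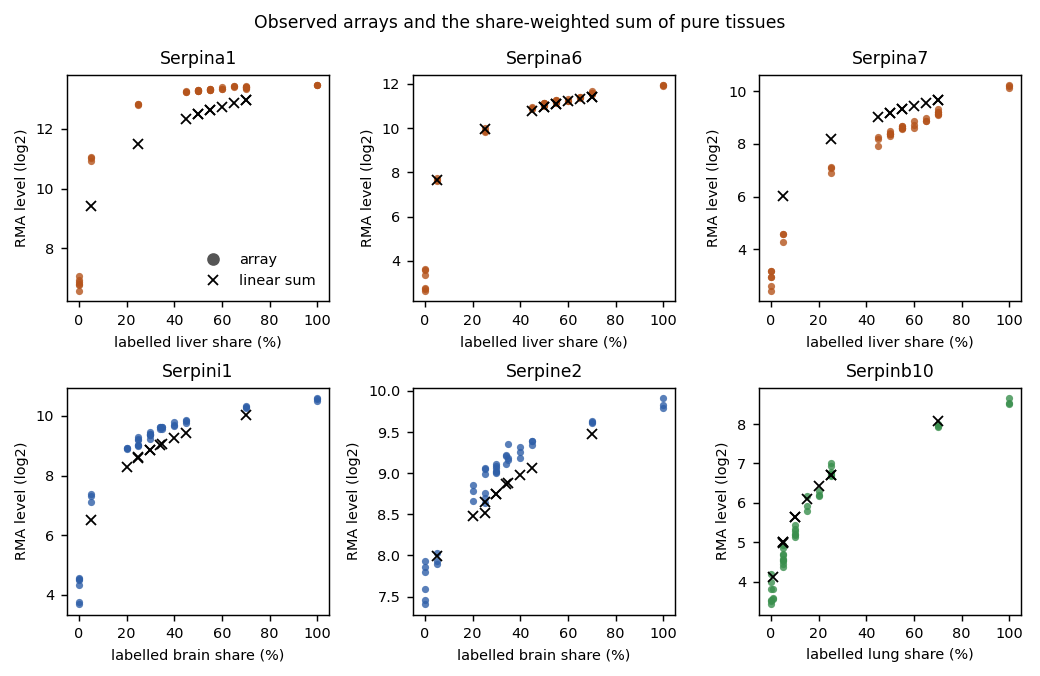
RMA level (log2) of 6 serpins on every array (points) against the labelled share of the tissue named on each horizontal axis, with the share-weighted linear sum as crosses. Serpina1 points lie above the crosses (1.59 higher at 5% liver), Serpina7 points lie below them (-1.55), and Serpina6 points sit on or near them.

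Some liver serpins departed little on average. Serpina6, 343-fold higher in pure liver than in brain, departed by 0.10 ± 0.04 on average, between -0.06 and 0.19 in single mixtures. Serpind1 departed by -0.01 ± 0.07 and Serpina4 by 0.03 ± 0.05, averages over mixtures of both signs (-0.18 to 0.12 and -0.23 to 0.15). Across the 16 liver-enriched probe sets the departure went with the level of the probe set in pure liver, with Pearson's r of 0.82 and Spearman's rho of 0.94 as a description over probe sets that share arrays and normalization. Of the 7 whose liver level was over 12, 6 lay above the sum. Of the 5 between 11 and 12, 3 lay above it, and of the 4 at or under 11 none did. All 3 brain-enriched probe sets, 2 of them of Serpini1, lay above their sum (0.26 to 0.52). All 9 lung-enriched ones lay below it (-0.40 to -0.07), as did all 10 without enrichment (-0.32 to -0.11). The medians of the last 2 sets, -0.17 and -0.21, were not lower than the median of all probe sets, -0.22. As that median is negative, lying below the sum was the more common side over all probe sets. The exact share on each side was not counted. What the departures reflect was not tested.

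**Figure D3:**
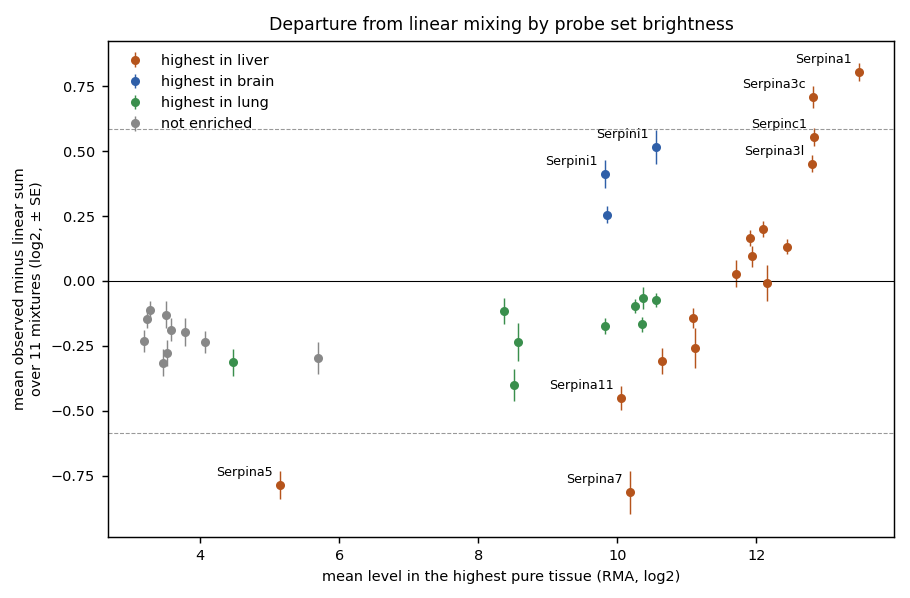
Mean departure of each serpin probe set from linear mixing over 11 mixtures (log2, with the SE of the fit) against its mean level in its highest pure tissue, with dashed lines at 1.5-fold. Serpina1 (0.80) and Serpina3c (0.71) lie above the upper line, Serpina7 (-0.82) and Serpina5 (-0.79) lie below the lower one.

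Pairs of mixtures in which 1 tissue was exchanged for another were compared at an adjusted p under 0.05 (limma, Benjamini-Hochberg) with no fold limit. Mixture 70/25/5 against 25/70/5 exchanges liver for brain, and 22 serpin probe sets were higher in 70/25/5 (22.1% of all probe sets) and 3 lower (30.9% of all). All 16 liver-enriched probe sets were among those higher, by 0.50 to 2.08 (log2), where linear sums differed by 0.78 to 1.47. The largest were Serpina7 (2.08 ± 0.11, SE, predicted 1.46), Serpinf2 (1.90 ± 0.11, predicted 1.43) and Serpina3m (1.85 ± 0.07, predicted 1.45). Serpina1, in contrast, was only 0.57 ± 0.05 higher where 1.45 was predicted. The 3 lower ones were both probe sets of Serpini1 (-1.06 ± 0.09 and -0.98 ± 0.08, predicted -1.45 and -1.41) and Serpine2 (-0.59 ± 0.06, predicted -0.82). Serpini1 read 9.29, 9.24 and 9.20 in 70/25/5, against 10.31, 10.34 and 10.25 in 25/70/5, without overlap.

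Mixture 70/25/5 against 5/25/70 exchanges liver for lung at the same brain share. It had 22 serpin probe sets higher (30.7% of all) and 13 lower (30.6% of all). The largest differences upward were again those of Serpina7 (4.64 ± 0.11, predicted 3.64), Serpina3m (4.03 ± 0.07, predicted 3.60) and Serpinf2 (4.02 ± 0.11, predicted 3.51), and Serpina1 differed by 2.41 ± 0.05 where 3.55 was predicted. The largest downward were those of Serpinb10 (-3.19 ± 0.13, predicted -3.08), the brighter Serpinb1a probe set (-2.54 ± 0.08, predicted -2.78) and Serpinb6b (-2.13 ± 0.12, predicted -1.94). Serpinb10 read 4.84, 4.58 and 4.93 in 70/25/5, against 7.96, 7.94 and 8.02 in 5/25/70. Serpinb1a read 7.20, 7.22 and 7.18 in 70/25/5, against 9.72, 9.80 and 9.71 in 5/25/70. In both genes the mixtures did not overlap. The 3 brain-enriched probe sets were called higher in 70/25/5 as well, by 0.22 to 0.39, although both mixtures held 25% brain and the predicted differences were -0.05 to 0.13. The median difference of all probe sets in this pair was 0.05.

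Mixture 70/25/5 against 70/5/25 exchanges brain for lung, and liver is the same. Here 3 serpin probe sets were higher (21.4% of all) and 11 lower (25.4% of all), and 0 of the 16 liver-enriched ones were called, with differences of -0.13 to 0.05. The 3 higher ones were both probe sets of Serpini1 (1.98 ± 0.09 and 1.87 ± 0.08, predicted 2.08 and 1.87) and Serpine2 (1.08 ± 0.06, predicted 0.66). Serpini1 read 9.29, 9.24 and 9.20 in 70/25/5, against 7.39, 7.30 and 7.10 in 70/5/25. Serpine2 read 8.98, 9.07 and 9.05 in 70/25/5, against 8.03, 7.90 and 7.94 in 70/5/25. Both genes followed the brain share without overlap. The largest downward differences were those of Serpinb10 (-2.12 ± 0.13, predicted -1.72), Serpinb1a (-1.73 ± 0.08, predicted -1.49) and Serpinb6b (-1.45 ± 0.12, predicted -0.97). All 9 lung-enriched probe sets were lower in 70/25/5 by more than predicted. The 3 pairs share the 70/25/5 arrays.

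**Figure D4:**
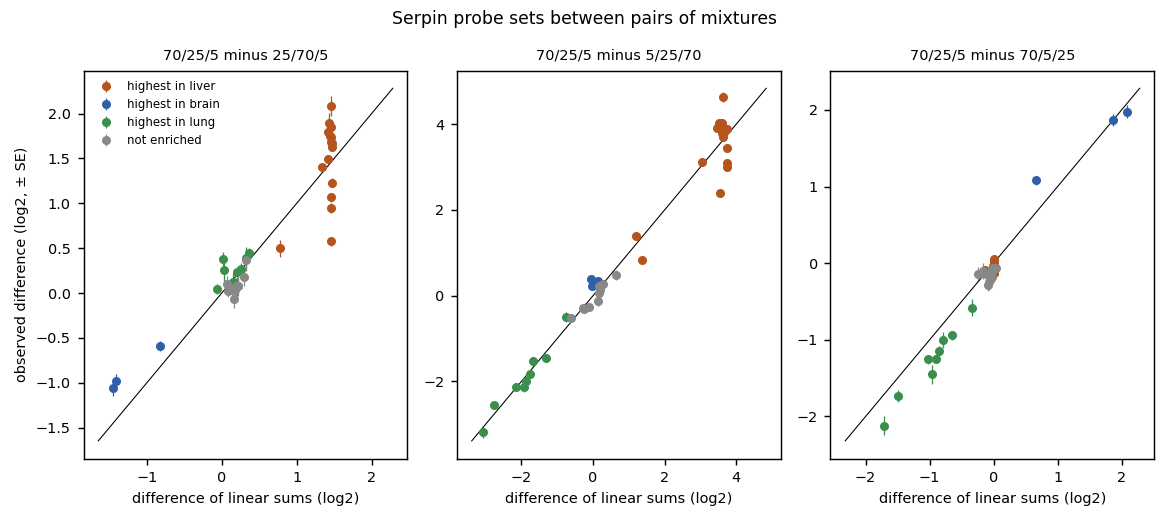
Observed difference (log2, with SE) of each serpin probe set between 3 pairs of mixtures, against the difference of their linear sums, with the line of equality. In the left and middle panels liver-enriched serpins scatter widely around the line (0.57 for Serpina1 and 2.08 for Serpina7 on the left), and in the right panel they sit near 0.

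The smallest lung share, 1% in 65/34/1, is given beside 60/35/5 as values only, since liver and brain differ slightly too. Serpinb10 read 3.57, 3.56 and 3.82 in 65/34/1, where 4.11 was predicted, against 4.45, 4.54 and 4.69 in 60/35/5. Those of 65/34/1 lay within the range of pure liver and brain. Serpinb1a read 5.97, 6.21 and 6.03 in 65/34/1 and 6.96, 7.07 and 6.99 in 60/35/5.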

How the data were processed

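The deposited table holds log2 levels per probe set that the authors normalized with RMA, per the submitters' processing notes. The sources used here name no version of RMA. The arrays were treated as 14 groups of 3, and 57 control probe sets entered no test. RMA gives arrays similar distributions, which can scale tissues unevenly, and compresses differences near background. Symbols came from the platform annotation. A gene with several probe sets is represented by its probe set with the highest overall mean.

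All 42 arrays entered 1 fit with a mean per group (limma 3.58.1, R 4.3.3, 28 residual and 4.56 prior degrees of freedom), with Benjamini-Hochberg adjustment over all 31042 probe sets. Departures took their error from this fit by the delta method. Members, gene lists, marker lists, motifs and tests were chosen with earlier results of these data known. Named with array values were the 20 enriched genes with the largest smaller difference, the brightest gene per clade and genes whose probe sets disagree, with the 5 largest departures and 3 largest calls each way per pair. At most 28 values were equal between replicate arrays, so each counted once. The steps were tested on simulated arrays. Alternatives covered the arrays fitted, variance model, scaling, background, dim filter, limits, probe set choice, mixing scale and leaving out each array. Python 3.11.15 and matplotlib 3.10.9 made the figures.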

Additional observations from a re-analysis of the deposited data

How the results depend on the processing

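Counts of called serpin probe sets stayed within 1.5 times under every alternative run, except that of departures: 4 as reported, 0 at a 2-fold limit, 1 after each array was shifted along a curve through its hybridisation controls and 19 against a share-weighted mean of log2 values, which predicts lower levels by construction. Against that mean Serpina7 reversed to 1.64 above, and Serpina5 (-0.54) no longer passed. Of 85 single values, 70 kept direction and call under every alternative run. The others were 11 differences that missed a 4-fold limit and the 4 departures, which missed a 2-fold limit. Under the control curve Serpina5 fell under 2-fold in liver over brain (1.00), and the departures of Serpina3c (0.53), Serpina5 (-0.44) and Serpina7 (-0.56) were not called. Median centring left those of Serpina1 (0.54) and Serpina3c (0.44) uncalled. Leaving out 1 array gave 18 to 19 calls for brain and lung, 19 to 21 for liver and brain, 24 to 26 for liver and lung, and 4 departures each time. Scaling moved the median of all probe sets for liver minus brain, 0.18 as deposited, to 0.42 after centring and -0.65 along the curve. For liver minus lung it was 0.12, 0.37 and -0.78. No paired analysis was possible because the replicate numbers only name the arrays. The filter on dim probe sets kept 26 serpins. Probe sets near the dap controls have only loosely known folds.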
